A study of Mus musculus with 36 samples.

Results

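The adaptor MyD88, the kinases of the IRAK family and the TAK1 complex are the relay that carries the signal of interleukin-1 (IL-1) from its receptor into the cell. The ligand-bound receptor recruits MyD88, which assembles the kinases IRAK4, IRAK1 and IRAK2. These in turn engage the ubiquitin ligase TRAF6, and the chains that it builds are bound by TAB2 and bring the kinase TAK1 (gene Map3k7) with its partner TAB1 into action on the IKK and MAP kinase cascades that lead to NFκB and AP-1. IRAK3 (also called IRAK-M) and TOLLIP are known mainly as inhibitors of this relay. The transcripts of 10 of its components (Myd88, Irak1, Irak2, Irak3, Irak4, Traf6, Tollip, Map3k7, Tab1 and Tab2), picked by gene symbol out of 53421 genes in the count table, were followed here. Each symbol matched 1 gene, and all 10 genes passed the filter on low counts in every comparison.

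Poly(A) RNA was sequenced from a conditionally immortalised mouse line of fibroblast-like chondrocytes, labelled wild type. They had received an siRNA pool that targets no gene (NT) or one against Ift88 (IFT88siRNA), a component of the intraflagellar transport machinery. The labels give the siRNA at 50 nM and the methods at 10 nM. Cells without cytokine (0 h) and cells given IL-1β (10 ng/ml) for 5 spans (1, 2 and 4 h, then 8 and 24 h) gave 3 replicates for each of the 12 conditions and 36 libraries. No untreated cells were kept for the later times, so the effect of IL-1β and that of time in culture cannot be told apart. All libraries come from 1 line, and nothing says whether replicates were separate cultures, so p-values measure only the spread between these samples.

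Total counts per library were between 19337022 and 38304127. They were higher in the IFT88siRNA arm (median 25873754) than in NT (median 21672803.5). Levels are given as CPM, counts scaled to library size, after TMM scaling, a correction for library composition. Ift88 was lower in IFT88siRNA at every time, by 1.47 to 2.12 on the log2 scale (adjusted p from 3.26e-10 to 0.00189, edgeR). Of the collagens that mark the cell types, fibroblast Col1a1 was between 244 and 390 CPM and cartilage Col2a1 between 4.04 and 21.8 CPM, and of the other 4 chondrocyte markers Sox9 was between 12.1 and 79.6 CPM, Comp between 5.59 and 32.7 CPM, and Acan and Matn1 no higher than 0.711 CPM. Of 5 macrophage markers, Ptprc was at 0 in 18 and Adgre1 at 0 in 28 of the 36 libraries, and their summed level, nearly all of it from Cd68, was between 3.42 and 7.14 CPM. Of 3 endothelial markers the sum was at most 1.52 CPM.

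The 10 genes are spread over 8 chromosomes of the GRCm38 assembly: Myd88 at chr9:119335934-119341411, Irak1 at chrX:74013914-74023918, Irak2 at chr6:113638467-113695026, Irak3 at chr10:120141648-120202130, Irak4 at chr15:94543643-94581815, Traf6 at chr2:101678429-101701669, Tollip at chr7:141874813-141918507, Map3k7 at chr4:31964097-32023467, Tab1 at chr15:80133127-80161707 and Tab2 at chr10:7905653-7956230. All are protein-coding in the GENCODE annotation. Reads were counted per gene over its exons, by default without regard to strand, and 5 of the 10 genes share no exon base with a gene on either strand. Myd88 shares 11.3% of its exon bases with another gene, the opposite-strand Acaa1a, a peroxisomal thiolase, and Irak4 shares 7.87% with the opposite-strand Twf1. Irak3 shares 5.98% with the opposite-strand Tmbim4 and an antisense transcript, Irak2 4.44% with an unconfirmed opposite-strand locus, and Irak1 2.99% with microRNA genes on its own strand. Reads from such opposite pairs cannot be told apart by strand, and the values of Acaa1a, Tmbim4 and Twf1 are given beside those of Myd88, Irak3 and Irak4.

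Myd88, Irak2 and Irak3 were the members that rose most after IL-1β, so the stretch before the RefSeq start site of each is shown, 250 bases from 5′ to 3′ on the gene's own strand (GRCm38.p6). Capitals mark the only match to 3 motifs searched on both strands, with none overlapping another.
Myd88, minus strand, chr9:119340019-119340268: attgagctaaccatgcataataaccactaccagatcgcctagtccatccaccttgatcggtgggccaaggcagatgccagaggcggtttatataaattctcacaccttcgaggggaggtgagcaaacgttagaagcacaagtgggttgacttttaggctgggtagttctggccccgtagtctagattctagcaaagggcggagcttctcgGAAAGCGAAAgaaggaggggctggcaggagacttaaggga
Irak2, plus strand, chr6:113638217-113638466: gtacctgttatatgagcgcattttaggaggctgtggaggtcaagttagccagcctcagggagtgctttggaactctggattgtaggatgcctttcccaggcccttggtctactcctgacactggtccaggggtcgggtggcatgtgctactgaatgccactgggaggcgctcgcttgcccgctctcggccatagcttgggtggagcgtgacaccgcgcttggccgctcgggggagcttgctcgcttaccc
Irak3, minus strand, chr10:120202131-120202380: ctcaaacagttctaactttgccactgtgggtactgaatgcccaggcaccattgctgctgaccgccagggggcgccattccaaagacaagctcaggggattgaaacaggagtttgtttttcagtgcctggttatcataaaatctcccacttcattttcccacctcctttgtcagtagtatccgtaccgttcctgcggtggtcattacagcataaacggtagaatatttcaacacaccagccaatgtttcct
The match in Myd88 is to the interferon-stimulated response element, found in 3.44% of all 32851 RefSeq promoter windows of 300 bases. The AP-1 motif, searched as TGANTCA, is in 7.81% of all windows and in none of the 12 windows listed for 9 of the members, Tab1 having no entry. The κB consensus is in 8.46% of all windows and in 3 of those 12, which belong to Irak1 and Map3k7. The Irak1 matches, at -18 and -21 from the start sites of overlapping windows, are the same site. These are matches of letters, and their absence says only that the letters are not in the window.

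Per transcript length, the kinase TAK1 and its adaptor were the most abundant members in resting NT cells. In TPM (a measure of transcript share corrected for length, estimated by the authors with Salmon), Map3k7 was at 89.8 ± 9.19 (SD, n = 3), Tab2 at 83.4 ± 4.26 and Irak1 at 78.6 ± 3.25. Tollip (43.1 ± 0.453 TPM) and Myd88 (42.6 ± 0.283 TPM) came next, and Irak2 (18.02 ± 0.581 TPM) and Tab1 (17.7 ± 0.579 TPM) after them. Traf6 and Irak4 were lower, at 8.61 ± 0.913 and 8.03 ± 0.139 TPM, and the inhibitor Irak3 was lowest at 0.591 ± 0.153 TPM. Neighbours within each of these groups overlapped in their replicates, and the groups did not. After 4 h of IL-1β the order had changed at the top: Myd88 was first at 161 ± 0.973 TPM, above Tab2 at 86.9 ± 2.76 and Map3k7 at 82.8 ± 0.577. Irak3 was still last, at 2.65 ± 0.471 TPM. The low level of Irak3 leaves it between 18 and 165 reads per library, against 144 or more for each of the other 9 members.

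**Figure D1:**
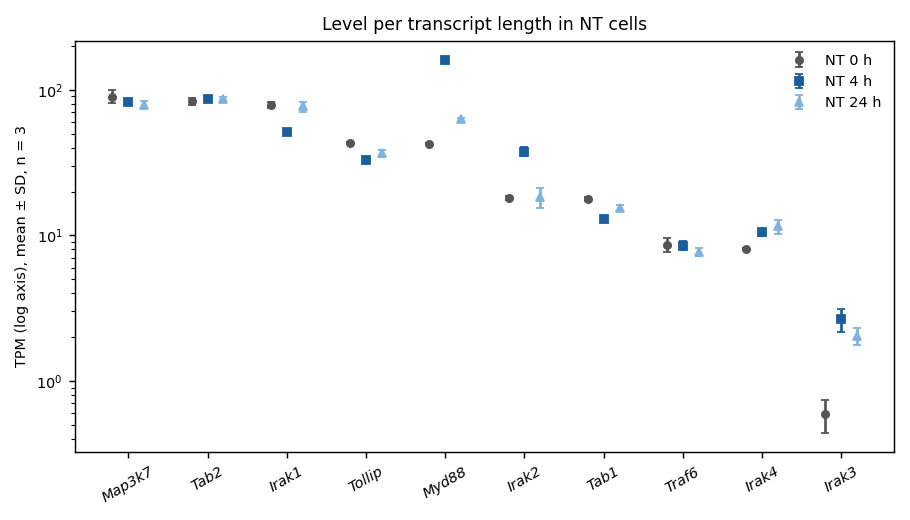
TPM per member (log axis) in NT cells at 0 h, 4 h and 24 h of IL-1β, as mean ± SD of 3 replicates, with members ordered by their level at 0 h. Myd88 moves from 42.6 TPM to the top at 161 TPM by 4 h, while Irak3 stays lowest at all 3 times.

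In NT cells IL-1β changed 7 of the 10 members when its 5 times were tested together against 0 h: Myd88, Irak2, Irak3, Irak4, Tollip, Tab1 and Tab2. A gene was called changed at an adjusted p under 0.05 and a fold change over 1.5, here at 1 or more times. Of all 16048 genes tested, 50.0% met the same rule, against these 7 of 10 members. Whether the shares differ was not tested, and 10 genes are few for such a comparison. The remaining members, Irak1, Traf6 and Map3k7, passed on the adjusted p (0.00270 or smaller) but not on the fold. At single times 2 members were called at 1 h, where the rule called 18.7% of all genes. The number was 6 at 2 h against 27.3%, 3 at 4 h against 28.7%, 3 at 8 h against 19.7% and 2 at 24 h against 16.3%. Of these 16 calls, 15 were rises and 1, Tab1 at 2 h, was a fall. The median change of the members on the log2 scale was 0.22 at 1 h, 0.47 at 2 h, 0.29 at 4 h, 0.09 at 8 h and 0.17 at 24 h, against -0.02 to -0.01 over all genes tested. Replicates that do not overlap with 0 h were common in NT: they were seen for 51.7% (24 h) to 65.2% (4 h) of 16710 genes.

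**Figure D2:**
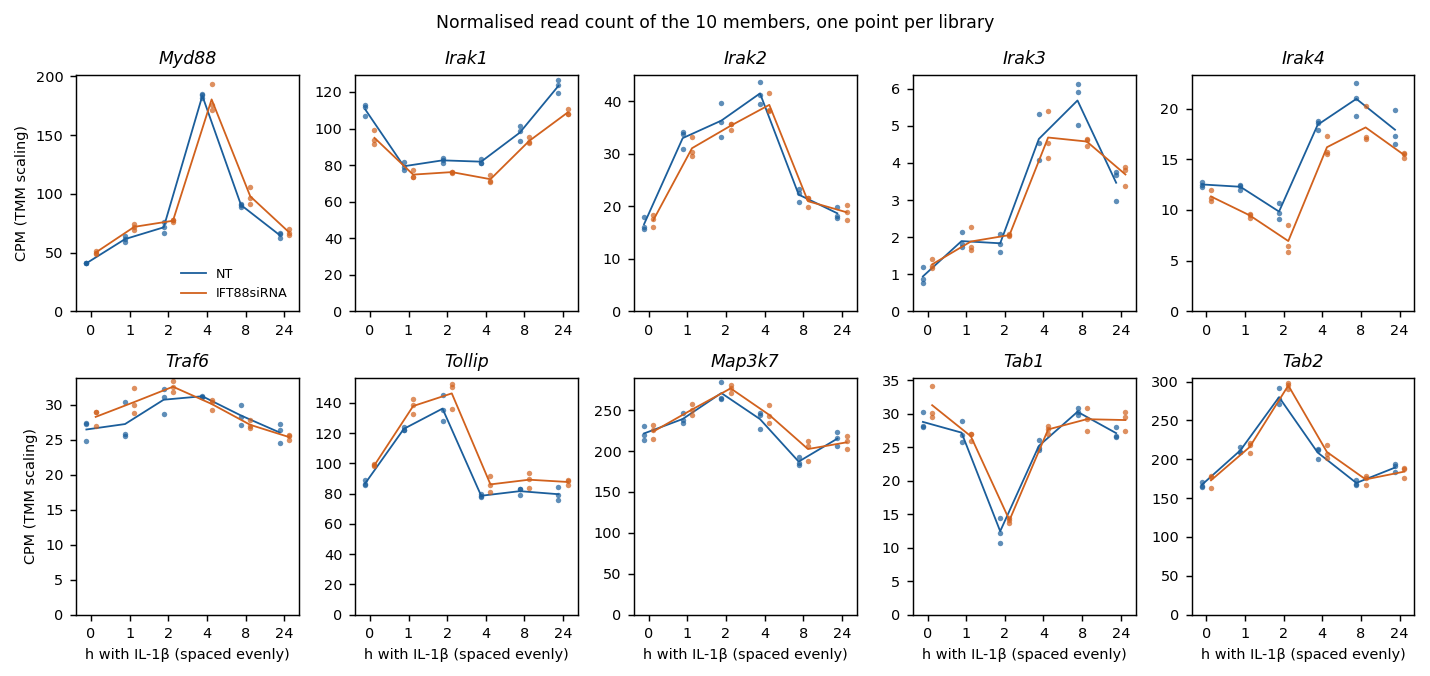
CPM (linear axes from 0) of each member in every library against time with IL-1β, spaced evenly, in NT (blue) and IFT88siRNA (orange) cells; lines join the means of 3 replicates. Myd88 peaks at 4 h, Tab1 dips at 2 h in both arms, and the arms run close together in every panel.

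Myd88, the adaptor shared by the IL-1 receptor and most Toll-like receptors, peaked at 4 h. Its 3 NT replicates at 0 h were at 40.9, 40.8 and 41.0 CPM, and at 4 h at 185, 182 and 184 CPM. The rise was 2.17 ± 0.05 on the log2 scale (SE, adjusted p = 2.91e-22, edgeR quasi-likelihood F-test). Every replicate at 1, 2, 8 and 24 h, from 58.9 to 91.4 CPM, lay above all those at 0 h and below all those at 4 h. The change was 0.80 at 2 h, and between 2 and 4 h Myd88 rose by a further 1.37 ± 0.04 before it fell by 1.02 ± 0.04 from 4 to 8 h (adjusted p = 1.63e-18 and 1.39e-15, edgeR). At 24 h it was still 0.67 ± 0.05 above 0 h. The opposite-strand neighbour Acaa1a rose as well, by 1.31 ± 0.05 at 4 h and 1.03 ± 0.05 at 8 h, from a mean of 39.1 CPM at 0 h to 96.4 and 79.5 CPM. How much of either change comes from reads of the other gene was not tested.

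Among the IRAK kinases the rises followed different courses. Irak2, the kinase that is thought to sustain signalling by TRAF6, was early: its NT replicates went from 16.1, 18.1 and 15.7 CPM at 0 h to 33.9, 30.9 and 34.2 CPM at 1 h. The change was 0.99 ± 0.08 at 1 h, 1.13 ± 0.07 at 2 h and 1.33 ± 0.07 at 4 h (adjusted p = 8.32e-11, 2.81e-12 and 6.99e-14, edgeR). The groups at 1, 2 and 4 h did not overlap with 0 h. Irak2 then fell by 0.90 ± 0.07 from 4 to 8 h, and at 24 h its replicates (17.8 to 19.9 CPM) overlapped with those at 0 h.

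Irak3, which lacks effective kinase activity and restrains the complex of MyD88 with the other IRAKs, was already up at 1 h, was highest at 8 h and was still up at 24 h. Its NT replicates were at 0.761, 0.866 and 1.20 CPM at 0 h, at 4.08, 4.55 and 5.32 CPM at 4 h, and at 5.91, 5.02 and 6.12 CPM at 8 h. At 24 h they were at 3.66, 2.97 and 3.76 CPM, so no treated group overlapped with 0 h. The change was 1.0 ± 0.22 at 1 h, 0.95 ± 0.22 at 2 h, 2.31 ± 0.19 at 4 h and 2.6 ± 0.18 at 8 h, the last being the largest of the 10 members in NT. On log2(TPM + 1), which understates low genes, the values at 1 and 2 h were 0.42 and 0.36, under the fold of 1.5. From 8 to 24 h Irak3 fell by 0.72 ± 0.14 and remained 1.88 ± 0.19 above 0 h (adjusted p = 9.24e-09, edgeR). These folds rest on 18, 21 and 27 reads in the libraries at 0 h, and Tmbim4 on the opposite strand changed by no more than 0.23 in either direction.

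Irak4, the kinase nearest to MyD88 in the complex, went down before it went up. Its NT replicates were at 12.8, 12.2 and 12.5 CPM at 0 h, at 9.71, 10.7 and 9.11 CPM at 2 h and at 19.3, 22.5 and 21.1 CPM at 8 h. The value at 2 h was -0.35 ± 0.08, which did not reach the fold, and the rise was 0.75 ± 0.08 at 8 h (adjusted p = 8.29e-09, edgeR). Between 2 and 4 h alone Irak4 rose by 0.92 ± 0.08. The 3 groups do not overlap with each other. Twf1, the actin-binding protein gene that overlaps Irak4 on the other strand, differed from 0 h by 0.15 to 0.32 at all times.

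Irak1, the kinase that is phosphorylated by IRAK4 and then degraded, was below its 0 h level from 1 to 8 h. Its NT replicates were at 113, 107 and 112 CPM at 0 h and at 79.1, 81.6 and 77.4 CPM at 1 h, with no overlap. The values were -0.48 ± 0.04 at 1 h, -0.42 ± 0.04 at 2 h and -0.42 ± 0.04 at 4 h (adjusted p = 9.48e-10 at 1 h, edgeR), all without reaching the fold of 1.5. At 24 h it was at 120, 127 and 124 CPM, above every replicate at 0 h, with a difference of 0.16 ± 0.04, while in TPM the replicates overlapped and the value was -0.03. The means of Irak1 were lowest, and those of Irak2 highest, at 1, 2 and 4 h.

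Traf6, the ubiquitin ligase between the IRAKs and TAK1, kept to a narrow band in NT, with means between 26.0 and 31.2 CPM over the 6 times. Its largest change in NT was 0.25 ± 0.07 at 4 h (adjusted p = 3.33e-03, edgeR). Tollip, which binds IRAK1 and the receptors, rose early and returned: its NT replicates were at 85.3, 86.1 and 88.7 CPM at 0 h, 128, 145 and 135 CPM at 2 h, and 78.1, 79.5 and 78.0 CPM at 4 h. The change was 0.65 ± 0.05 at 2 h (adjusted p = 1.22e-11, edgeR) and the fall from 2 to 4 h was -0.78 ± 0.05. With upper-quartile scaling the rise at 2 h was 0.54, under the fold of 1.5.

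In the TAK1 complex the binding partners moved in opposite directions at 2 h. Tab1, which activates TAK1 by direct binding, was called at that time and at no other: its NT replicates were at 30.3, 28.1 and 28.0 CPM at 0 h, 25.8, 26.9 and 28.9 CPM at 1 h, 14.4, 12.2 and 10.8 CPM at 2 h, and 26.1, 24.7 and 24.9 CPM at 4 h. The 2 h group lies below every other Tab1 value in the arm. The change at 2 h was -1.22 ± 0.08 (adjusted p = 7.22e-13, edgeR), and it was -1.14 ± 0.08 against 1 h. From 2 to 4 h Tab1 rose by 1.04 ± 0.08.

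Tab2, the chain-binding subunit, rose at the same time, from 166, 171 and 164 CPM at 0 h to 271, 292 and 277 CPM at 2 h. The change was 0.74 ± 0.04 at 2 h (adjusted p = 6.08e-14, edgeR) and 0.33 or 0.34 at 4 h and 1 h. At 8 h the Tab2 replicates, from 167 to 173 CPM, overlapped with 0 h. Map3k7, which encodes TAK1 itself, stayed within a narrow band, from a mean of 187 CPM at 8 h to 271 CPM at 2 h. Its values were 0.29 ± 0.05 at 2 h and -0.24 ± 0.05 at 8 h (adjusted p = 7.41e-06 and 9.55e-05, edgeR). Across the 12 condition means of log2 CPM, Tab1 and Tab2 had a Pearson r of -0.92 and Map3k7 and Tab2 one of 0.89, as a description over means that share libraries and scaling.

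**Figure D3:**
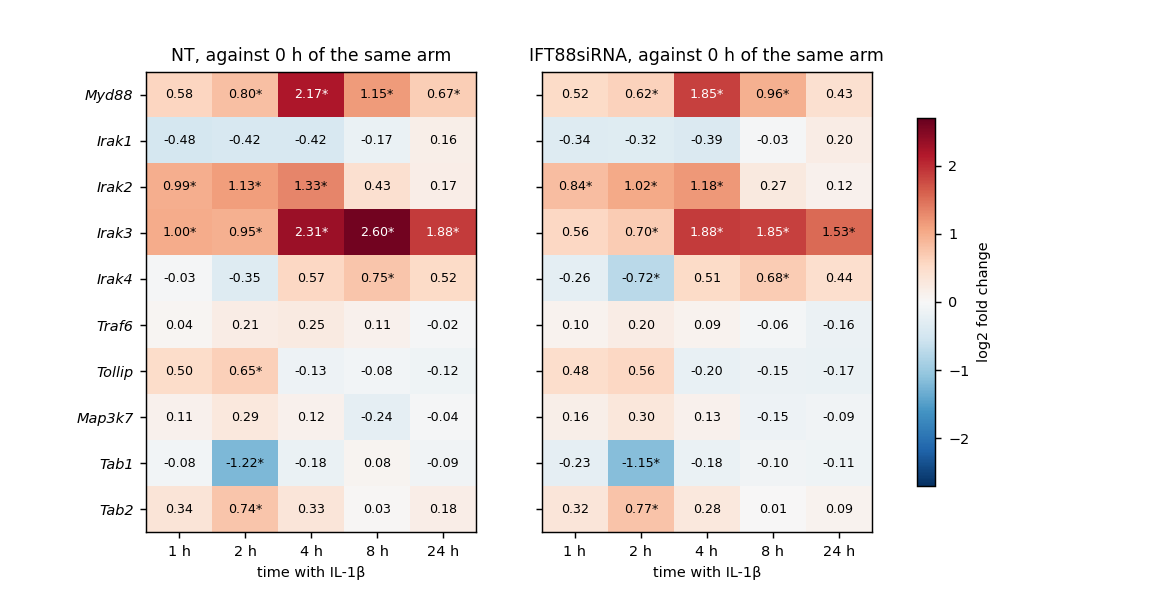
Log2 fold change of each member from 0 h of its own arm, after 1 to 24 h of IL-1β, in NT (left) and IFT88siRNA (right); red is higher, blue is lower, and a star marks adjusted p under 0.05 with a fold over 1.5. Irak3 reaches 2.6 in NT and 1.88 in IFT88siRNA, and Tab1 falls by 1.22 and 1.15 at 2 h.

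From each time to the next, the NT calls were most numerous between 2 and 4 h. From 1 to 2 h 1 member, Tab1, was called (11.9% of all genes tested), and from 2 to 4 h 5 members were called (27.1%): Myd88, Irak3, Irak4 and Tab1 rose and Tollip fell. From 4 to 8 h Myd88 and Irak2 fell (16.9%), and from 8 to 24 h only Irak3 did (13.4%), which on log2(TPM + 1) was at -0.51, under the fold. Values in TPM, which is scaled to a fixed total, sat lower against 0 h for the median gene, by 0.22 on the log2 scale at 2 and 4 h in NT (log2(TPM + 1), limma). The median gene stayed within 0.02 of 0 under TMM. Relative to the median gene the TPM changes were 0.63 for Tollip and 0.77 for Tab2 at 2 h and 2.16 for Myd88 at 4 h, on the log2(TPM + 0.1) scale. With limma on TPM without this shift, Myd88 at 2 and 24 h and Tollip and Tab2 at 2 h in NT were under the fold of 1.5 (0.37 to 0.55). The signs of Traf6 and Map3k7 at 4 h in NT turned with the scale (0.25 and 0.12 under TMM, -0.02 and -0.11 in TPM). So did those of Irak1 at 24 h in NT and of Traf6 at 2 h and Map3k7 at 4 h in IFT88siRNA. Smaller changes, of 0.01 to 0.09 under TMM, turned as well. These were Traf6 at 1 h and Tab1 and Tab2 at 8 h in NT, and Traf6 at 4 h and Tab2 at 8 h in IFT88siRNA.

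In IFT88siRNA cells the same tests against that arm's own 0 h called 6 of the 10 members over the 5 times together, all those called in NT except Tollip, where 48.2% of 16129 genes were called. At single times 1 member was called at 1 h (15.1% of all genes), 6 at 2 h (25.6%), 3 at 4 h (29.3%), 3 at 8 h (17.6%) and 1 at 24 h (14.2%). Myd88 replicates rose from 51.7, 49.3 and 49.1 CPM at 0 h to 176, 194 and 171 CPM at 4 h, a change of 1.85 ± 0.06. Irak3 replicates rose from 1.23, 1.16 and 1.41 CPM to 4.13, 5.39 and 4.54 CPM at 4 h, by 1.88 ± 0.15. Irak2 rose by 1.18 ± 0.07 at 4 h. Each of these groups at 4 h lay apart from its 0 h, as did 62.6% of 16710 genes in this arm.

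The dip of Tab1 recurred at 2 h with 13.7, 14.2 and 14.4 CPM, against 29.6, 34.2 and 30.1 CPM at 0 h, a change of -1.15 ± 0.07 (adjusted p = 4.82e-13, edgeR). Tab2 rose by 0.77 ± 0.05 at 2 h. Irak4 passed both thresholds downward in this arm at 2 h, with 6.47, 8.52 and 5.81 CPM against 11.96, 10.9 and 11.2 CPM at 0 h and a change of -0.72 ± 0.11 (adjusted p = 3.04e-06, edgeR). It then rose above 0 h, by 0.68 ± 0.09 at 8 h. Tollip, at 0.56 ± 0.05 at 2 h, did not reach the fold. With upper-quartile scaling the rise of Myd88 at 2 h in this arm (0.62) came to 0.52, also short of it. With limma on log2(TPM + 1), Myd88 and Irak3 at 2 h in this arm were at 0.37 and 0.23, both under the fold, and Irak3 had an adjusted p of 0.0692.

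Between the siRNA groups no member reached a fold of 1.5 at any of the 6 times, so none was called with edgeR, while Ift88 was called at each of them. The same rule called 2.23% of all genes at 0 h, 2.66% at 1 h, 0.496% at 2 h, 0.432% at 4 h, 0.692% at 8 h and 1.15% at 24 h. It also called none of the 10 with the 6 times tested together (5.19% of 16710 genes) or on their mean difference (1.93%). Most intervals were narrow. For Map3k7 and Tab2 the 95% intervals of log2(IFT88siRNA/NT) lay between -0.14 and 0.21 at all times, and for Irak2 between -0.26 and 0.22. The widest belonged to Irak3, from -0.05 to 0.92 at 0 h and from -0.60 to -0.07 at 8 h.

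On adjusted p alone, with no fold required, there were small differences. At 0 h 3 members differed (19.5% of all genes by this rule): Myd88 was higher by 0.29 ± 0.05 and Tollip by 0.19 ± 0.04 in IFT88siRNA, and Irak1 was lower, at -0.22 ± 0.04 (adjusted p = 1.80e-04, 2.49e-03 and 1.04e-03, edgeR). At 1 h 3 differed (19.0%): Myd88 at 0.22 ± 0.05, Tollip at 0.16 ± 0.04 and Irak4 at -0.38 ± 0.08. None did at 2 h (2.76%) or 8 h (4.25%) with edgeR, where 2 members at each time had an unadjusted p under 0.05, Irak1 and Irak4 at 2 h (17.2% of all genes by this rule) and Irak3 and Irak4 at 8 h (21.1%). DESeq2 gave 9 calls over the 6 times in place of 8. Irak1 alone differed at 4 h (3.85%) and at 24 h (8.66%), at -0.19 both times. The call of Irak1 at 4 h was lost with the replicate block (adjusted p = 0.0711, edgeR) and without the low-count filter (0.0682, edgeR). It was also lost without 5 of the 6 libraries in turn, all but replicate 3 of IFT88siRNA (up to 0.211). At 24 h it was lost without NT replicate 2 or IFT88siRNA replicates 1 or 2 (up to 0.108). With limma on TPM the calls of Irak1 at 4 and 24 h were lost, as were all those at 1 h. At 1 h the adjusted p on log2(TPM + 1) was 0.0600 for Myd88, 0.142 for Tollip and 0.141 for Irak4 (limma). The calls at 0 h were lost only on log2(TPM + 1) without a filter (0.0523 to 0.0655, limma).

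**Figure D4:**
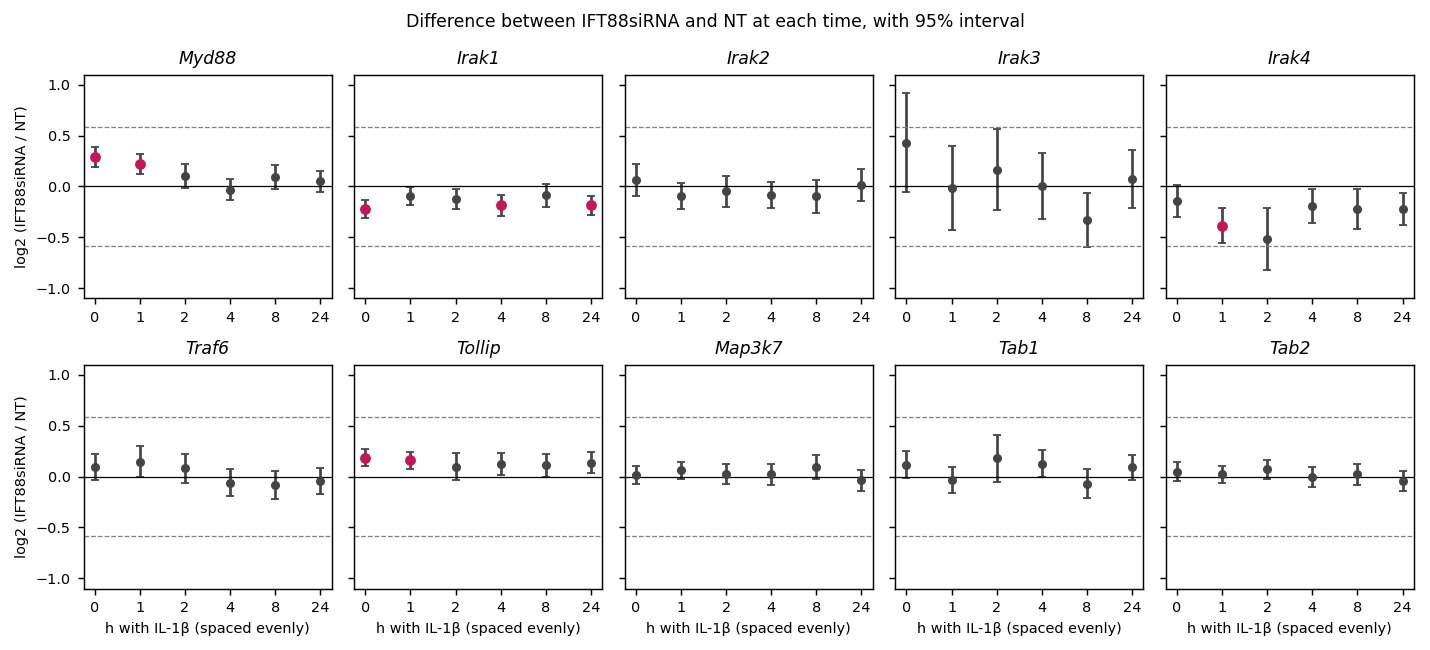
Log2 ratio of IFT88siRNA to NT for each member at each time (points) with its 95% interval (bars); dashed lines mark a fold of 1.5 either way, and magenta points have an adjusted p under 0.05. No point lies beyond the dashed lines, Irak4 comes nearest at -0.51 at 2 h, and Myd88 starts at 0.29 and reaches -0.03 at 4 h.

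Taken over all times, Irak4 and Irak1 were lower and Tollip and Myd88 higher in IFT88siRNA. The mean of the 6 differences was -0.27 ± 0.04 for Irak4, -0.14 ± 0.02 for Irak1, 0.14 ± 0.02 for Tollip and 0.13 ± 0.02 for Myd88 (adjusted p = 2.56e-07, 8.64e-09, 9.21e-07 and 5.63e-06, edgeR). Tab1 was at 0.08 ± 0.03 (adjusted p = 0.0275, edgeR), a call that was lost without NT 2 h replicate 3 or IFT88siRNA 0 h replicate 2. That call was also lost with upper-quartile scaling (adjusted p = 0.0581, edgeR) and on TPM (0.190 to 0.299, limma). By the adjusted p alone 39.7% of all genes differed in the mean, so these 5 of 10 members are close to the share of the transcriptome. Irak4 was lower in IFT88siRNA by its mean at every time, and its largest difference was -0.51 ± 0.14 at 2 h. Its NT replicates were then at 9.71, 10.7 and 9.11 CPM and its IFT88siRNA replicates at 6.47, 8.52 and 5.81 CPM. These do not overlap, as for 20.8% of 16710 genes at 2 h, and the difference at 2 h alone did not pass on adjusted p with edgeR. When the 6 times were tested together, Myd88, Irak1, Irak4 and Tollip passed on adjusted p (31.8% of all genes). Without IFT88siRNA 2 h replicate 2, Irak4 also passed the fold there, with a largest absolute change of 0.68.

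The test of whether the response to IL-1β itself differed between the arms found 1 member, Myd88, by adjusted p (0.0275 over the 5 times together, 5.53% of all genes), and none with the fold as well (1.20%). Its rise from 0 h to 4 h was smaller in IFT88siRNA, by 0.31 ± 0.07 on the log2 scale (adjusted p = 0.0147, 1.18% of all genes, edgeR). Set side by side, Myd88 started higher in IFT88siRNA (49.1 to 51.7 CPM against 40.8 to 41.0 CPM, no overlap, as for 33.5% of genes at 0 h). At 4 h the arms overlapped (171 to 194 CPM against 182 to 185 CPM). The joint call was lost without any 1 of 9 libraries: NT 0 h replicates 1, 2 and 3, NT 4 h replicates 1 and 3, IFT88siRNA 0 h, 1 h and 4 h replicate 1, and IFT88siRNA 4 h replicate 3 (adjusted p from 0.0515 to 0.0702). The call at 4 h alone was lost without IFT88siRNA 0 h replicate 1, 4 h replicate 1 or 4 h replicate 3 (0.0535 to 0.0656). Acaa1a, which shares exon bases with Myd88, had a response difference of -0.24 ± 0.08 at 4 h (adjusted p = 0.159, edgeR), and its part in the Myd88 value was not tested. For Irak3 the difference in response was largest in size, -0.75 at 8 h with an interval from -1.23 to -0.26, and did not pass over all genes (adjusted p = 0.162 at that time, edgeR).

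The rest of the pathway was read from 4 lists of other genes, against the 50.0% of all genes called in NT over the 5 times. Of 5 receptor chains, decoys and the antagonist, 3 were tested and all 3 were called in NT over the 5 times. Il1r1, the signalling receptor chain, rose by 1.64 ± 0.06 at 2 h from replicates between 30.7 and 31.8 CPM to 90.8 to 105 CPM. Its co-receptor Il1rap rose by 1.63 ± 0.05 at 4 h, and Il1rn, the secreted receptor antagonist, by 2.65 ± 0.05 at 8 h. Il1rn therefore peaked at the same time as Irak3, at 319 to 347 CPM from 52.3 to 54.0 CPM. Il1r2 and Sigirr had too few counts to be tested.

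Of 15 partners of MyD88, IRAKs and TRAF6, 14 were tested and 6 called in NT, close to the share of all genes. Tifa, which oligomerises to activate TRAF6, rose by 2.84 ± 0.08 at 1 h, and the autophagy receptor and TRAF6 scaffold Sqstm1 by 1.22 ± 0.05 at 2 h. Peli1, a ubiquitin ligase that acts with IRAKs, rose by 1.20 ± 0.05 at 4 h. Sarm1, a TIR-domain protein with NAD-cleaving activity, fell by 1.44 ± 0.25 at 4 h from at least 2.02 CPM in each replicate at 0 h to between 0.623 and 1.54 CPM. Tirap, the sorting adaptor of Toll-like receptors, fell by 0.93 ± 0.07 at 1 h, from 27.9 to 29.9 CPM to 14.0 to 16.1 CPM. The median change of the 14 at 4 h was 0.04, against 0.29 for the 10 members.

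Of 11 genes for kinases or kinase-complex subunits downstream of TAK1, 5 were called in NT, also close to that share. Map3k8 (TPL2), which activates the ERK branch, rose by 4.35 ± 0.10 at 1 h from 2.49 to 4.26 CPM to 69.2 to 77.6 CPM. Map2k3, a p38 activator, rose by 1.29 ± 0.04 at 2 h, Map2k4 by 0.97 ± 0.05 at 2 h and Ikbkb by 0.68 ± 0.05 at 4 h. Map2k6, another p38 activator, fell by 1.94 ± 0.31 at 4 h, from at least 1.18 CPM in each replicate at 0 h to between 0.275 and 0.566 CPM. Of 4 regulators that edit ubiquitin chains on the pathway, 2 were called: Tnfaip3 (A20) rose by 6.41 ± 0.06 at 1 h to between 2635 and 2783 CPM, and its partner Tnip1 rose by 1.88 ± 0.06 at 4 h. Between the siRNA groups over the 6 times, Tnfaip3 was the 1 gene of the 4 lists past both thresholds, with a largest difference of -0.62 and a mean difference of -0.41 ± 0.02. On adjusted p alone, 2 of the 3 tested genes of the receptor list passed there (31.8% of all genes). Il1rap means were lower in IFT88siRNA at every time, at 68.3 against 85.4 CPM at 0 h and 132 against 191 CPM at 8 h. Those of Il1r1 and Il1rn were not lower at 0 h (32.2 against 31.4 and 58.1 against 53.0 CPM). With IL-1β the Il1r1 means were lower in IFT88siRNA at every time. At 2 h they were 79.9 against 98.3 CPM, with replicates apart, as for 20.8% of 16710 genes. Il1rn means were lower at 1, 2 and 8 h and higher at 4 and 24 h. By adjusted p at 2 h alone, 2 of the 3 genes were lower, where 2.76% of all genes differed.

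**Figure D5:**
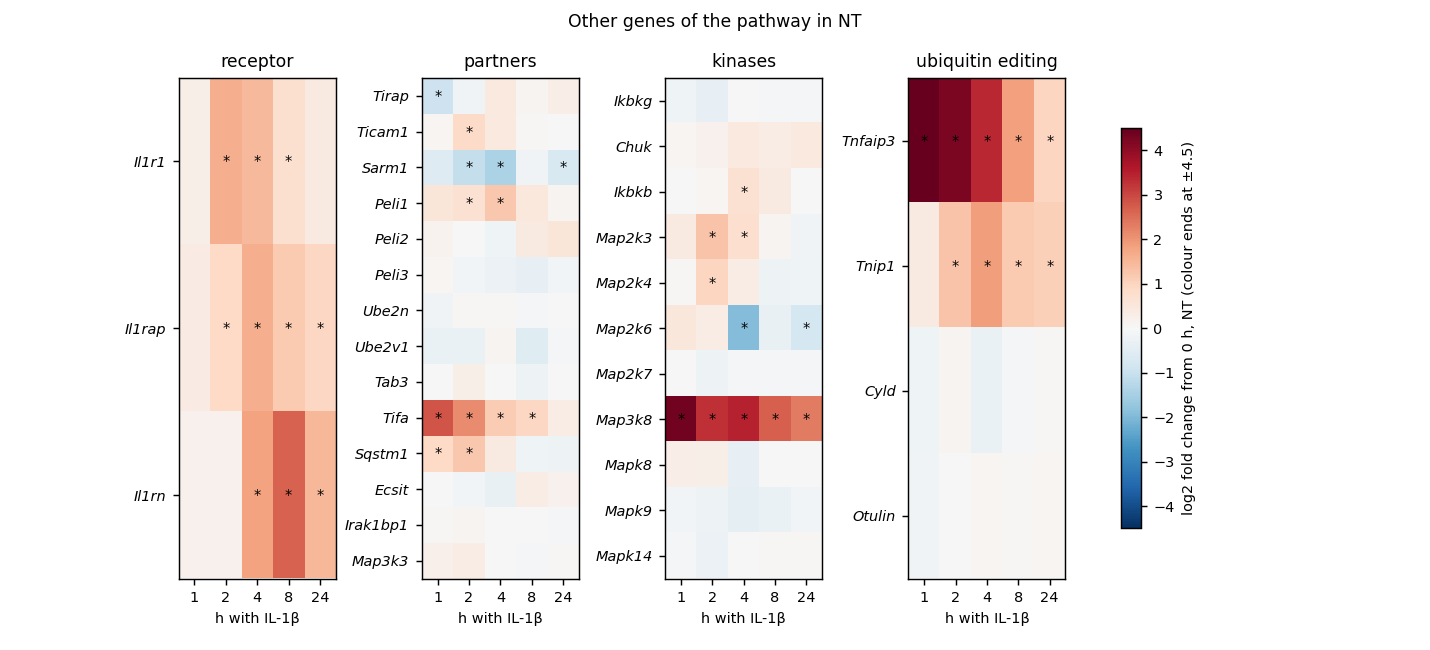
Log2 fold change from 0 h in NT at the 5 times of IL-1β for the tested genes of 4 other lists of the pathway (red higher, blue lower, colour ends at ±4.5); a star marks adjusted p under 0.05 with a fold over 1.5. Tnfaip3 at 1 h (6.41) and Map3k8 at 1 h (4.35) are the strongest rises, and Map2k6 at 4 h (-1.94) the strongest fall.

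The genes whose 12 condition means of log2 CPM were most like those of Myd88, of 14254 with 1 CPM or more in a condition, were Stat5a (Pearson r = 0.987), Cpt1a (0.985) and Cables1 (0.983). For Irak3 they were H2-T23 (0.974), Tm9sf4 (0.973) and Heg1 (0.972). Among the members themselves, Irak3 and Irak4 had an r of 0.74, Myd88 and Irak3 one of 0.77 and Irak4 and Tollip one of -0.90. All are descriptions over 12 means of the same libraries.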

How the data were processed

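Gene counts and TPM values of 36 libraries were used. The authors aligned reads to GRCm38 with HISAT2 2.1.0 and counted them per gene with featureCounts (Subread 1.6.3, default parameters), and the deposited counts are whole numbers without normalization. TPM values were estimated by the authors with Salmon 0.9.1. Totals were 19337022 to 38304127 counts per library, and reads carry no molecular identifiers. Standard errors and p-values take in the fitted spread between replicates as well as counting error.

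Counts were tested in R 4.3.3 with edgeR 4.0.16 (TMM, filterByExpr, quasi-likelihood F-tests, two-sided, Benjamini-Hochberg adjustment over all genes tested). Each siRNA arm was fitted in 1 model of 18 libraries, each time between arms with 6 libraries, and tests of the mean difference and of the response with all 36. Fits were tested on simulated data. Standard errors (SE) were derived from the fold change and its F-statistic, and intervals are at 95%. CPM come from 1 TMM scaling of all 36 libraries.

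Named were all 10 members, Ift88, up to 5 called genes with the largest change per list, and the 3 genes most like Myd88 and Irak3; the genes overlapping members were added afterwards. Members and lists were chosen with earlier results of these data known. Alternatives were DESeq2 1.42.0, other scalings, no low-count filter, no fold threshold, a replicate block, a single model of all 36 libraries, omission of each library in turn, and limma 3.58.1 on TPM with pseudocounts of 1 or 0.1. Coordinates are from GENCODE vM21, promoters from RefSeq. Same-numbered libraries were not treated as pairs: 4 of 18 pairs between arms had correlated deviations over 0.1. Figures were drawn with matplotlib.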

Additional observations from a re-analysis of the deposited data

Results flagged for a closer look

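The response of Myd88 to IL-1β differed between the arms by a test of the difference itself: its change from 0 h to 4 h was lower in IFT88siRNA by 0.31 on the log2 scale (adjusted p = 0.0147, edgeR), and the 5 times together gave an adjusted p of 0.0275, with the same largest difference of -0.31 at 4 h. The differences at all times subtract the same 0 h libraries. The direct comparison of the arms gave 0.29 ± 0.05 at 0 h and -0.03 ± 0.05 at 4 h.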

How the results depend on the processing

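Counts of members called moved by over 1.5 times under few of the settings tried. Without the fold threshold, the 16 calls at single times in NT became 38, the 14 in IFT88siRNA became 40, the 9 between neighbouring times became 29, and the 6 members called over the 5 times together in IFT88siRNA became 10. The 8 differences between the arms at single times by adjusted p alone became 3 with limma on log2(TPM + 1), 3 on log2(TPM + 0.1) and 0 on log2(TPM + 1) without a filter; the cause was not tested. Leaving out 1 library at a time gave 16 to 17 calls in NT, 14 to 15 in IFT88siRNA, 7 to 9 between the arms at single times by adjusted p, 4 to 6 for the mean difference, 0 to 1 for both thresholds over the 6 times together and 0 to 1 for the response by adjusted p. With the replicate block the counts were 16 in NT, 14 in IFT88siRNA and 8 between the arms at single times by adjusted p, and of 71 member calls 1 was lost, Irak1 at 4 h. The libraries share only a number, and 14 of the 36 correlated best with their own number in the other arm. DESeq2 and its size factors kept all 71 member calls, upper-quartile scaling lost 4 and limma on TPM lost 14 to 20, and none changed sign. Depth limits Irak3 most, at 18 to 165 reads per library.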
